A study of Caenorhabditis elegans with 32 samples.

Results

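The genes described are 40 Caenorhabditis elegans genes of the germline, of meiosis and of the oocyte and early embryo, listed by name from their known functions, with earlier results of these data known. A listed name was looked up in the gene column of a table of transcripts of untreated animals, and its transcript was followed into 3 further tables by RefSeq identifier. This found 23 of the 40 genes, with 25 transcripts among 16422 in the table. Every transcript of that table stands at 0.2321 FPKM or more at one age or the other, so the lookup keeps genes with some signal in untreated animals. The other 17 genes, with 21 transcripts, were found in the 3 further tables of 46971 transcripts through their RefSeq identifiers, and are given apart from the first set throughout. All 46 transcripts had the status OK. FPKM, the unit of the tables, scales the fragments of a transcript by its length and by how many fragments were mapped in all.

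Poly-A selected mRNA of whole adults was sequenced at day 2 and day 12 of adulthood, in 10 groups of 2 libraries. All animals, controls included, carried glp-1(e2141), a temperature-sensitive allele of the Notch receptor gene that keeps germline stem cells dividing, and were raised from embryos at the restrictive temperature, at which most of the germline is lost. The groups were untreated glp-1(e2141) animals, glp-1(e2141) animals that served as control of the mutant, double mutants of genotype met-1(n4337); glp-1(e2141), and glp-1(e2141) animals fed either L4440, an empty vector, or a met-1 RNAi (RNA interference) vector. Each of these 5 kinds of animals was measured at day 2 and day 12. The gene met-1 encodes a methyltransferase of lysine 36 of histone H3. The double mutant was made by a cross with an outcrossed met-1(n4337) strain and is a single strain. The labels do not say whether the 2 libraries of a group came from separate cultures, so the p-values measure the spread between these libraries, which may be technical.

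Germ cells of the worm hold P granules, perinuclear bodies of RNA and protein built by PGL proteins and by helicases of the GLH family. Much of oogenesis and of the first embryonic divisions runs without new transcription, and RNA-binding proteins such as GLD-1, MEX-3, POS-1 and the Pumilio-like PUF proteins decide when stored mRNAs are translated. In meiosis, HORMA domain proteins and cohesin form the chromosome axis, SYP proteins join homologous chromosomes, and SPO-11 makes the breaks that start recombination. Most of these transcripts are made mainly in the germline, and no animals with a full germline were measured here.

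Single libraries can be told apart in the RNAi experiment alone, whose 8 libraries list 14577 to 17234 transcripts at 1 FPKM or more. Read totals are not given, and steps between low values gave relative depths of 0.355 to 1.298, with the second L4440 library of day 12 the shallowest. The control, mutant and untreated tables hold 1 value per age for both libraries together, so that differences in them have no error and no test. The mutant and control tables were made separately, and levels set across them rest on the authors' scaling of each. The targeted gene met-1 stood at 7.8 and 5.03 FPKM in L4440 at day 2 and at 13 and 27.5 in the RNAi-labelled libraries. At day 12 it stood at 10.7 and 29.8 FPKM against 80.1 and 57.1. It was thus higher, not lower, where met-1 RNAi was labelled, by a mean of 1.65 on the log2(FPKM + 1) scale. Over the 36 arrangements of libraries within each age the exact two-sided permutation p was 0.0556, the smallest this design allows. In the mutant the summed met-1 level was 6.67 and 4.79 FPKM at day 2 and day 12, beside 5.41 and 6.34 in the control.

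The members ranged from 0 to well above 1 FPKM in the RNAi libraries. The yolk receptor gene rme-2 was listed at 0 in 7 of the 8 libraries of the RNAi experiment and at 0.027 FPKM in the other. The only transcript matched to the P granule gene pgl-1, NM_001047601, did not exceed 0.000128 FPKM in any column of the 3 tables that hold it. Whether reads of pgl-1 were given to another record was not tested. Other P granule and oocyte members stood at 1 FPKM or more in all 8 libraries, with glh-1 at 3.67 to 19 FPKM, glh-4 at 2.8 to 8.63, pgl-2 at 1.7 to 3.85 and oma-2 at 4.06 to 9.62. Of the 46 transcripts, 13 to 16 reached 1 FPKM in a library of day 2 and 18 to 21 in a library of day 12, as deposited. Over all 46971 transcripts the numbers also went up, from 14577 to 15179 at day 2 to 16762 to 17234 at day 12. Apart from a single rec-8 transcript described later, the highest were car-1 and cgh-1, an Lsm-domain protein and a DEAD-box helicase of cytoplasmic RNA granules that somatic cells also make. The gene car-1 stood at 81.7 to 97.8 FPKM at day 2 and 114 to 126 at day 12 as deposited, and cgh-1 at 28.1 to 32.6 and 35.9 to 44.4. With libraries scaled to one median the ages overlapped, at 94.5 to 115 and 96.3 to 108 FPKM for car-1 and 32.6 to 38.2 and 30.8 to 38.2 for cgh-1. Transcript NM_001026673 of gld-2, a cytoplasmic poly(A) polymerase, stood at 12.9 to 26.1 FPKM in the 8 libraries. Because whole animals were measured, fewer cells of a type and less RNA per cell cannot be told apart.

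At day 2 the met-1 mutant listed many of these transcripts at higher levels than its control. Of the 25 transcripts found by name, 8 were past 2-fold higher on the log2(FPKM + 1) scale and 0 lower, that is 32.0% against a background of 5.46% higher and 1.56% lower among the 14780 transcripts of the same table with status OK. Of the 21 found by identifier only, 10 were past 2-fold higher and 0 lower, 47.6% against 6.4% and 1.97% of 10275 coding transcripts outside that table. The median difference was 0.49 in the first set beside 0.14 for its background, and 0.98 in the second beside 0.05. With the mutant and control columns scaled to one median, 8 of 25 and 8 of 21 were past 2-fold higher. For the first set the background split of 807 higher and 231 lower then became 642 and 317. For the second set it went from 658 and 202 to 562 and 261, which is 5.47% higher and 2.54% lower. Of the 46 transcripts, 37 reached 1 FPKM in the mutant at day 2, against 20 in the control.

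Many of these transcripts crossed the level of 1 FPKM. Among the 25 found by name, 10 were under 1 FPKM in the control at day 2, and 8 of these were at 1 FPKM or more in the mutant. Among the other 21, 16 were under 1 FPKM in the control and 9 of these were at 1 FPKM or more in the mutant. In the background of the first set, 973 of 3513 transcripts under 1 FPKM in the control reached it in the mutant, which is 27.7%, and in that of the second set 672 of 6733, which is 9.98%. Crossing the other way was seen in 7.64% and 3.29% of background transcripts under 1 FPKM in the mutant and in 0 members.

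RNA-binding regulators of the oocyte and embryo made up 9 of the 18 transcripts past the 2-fold line, out of 14 measured. The CCCH zinc finger gene mex-5 (chromosome IV, 13353697 to 13355511 in the coordinates of the tables), which helps to set up polarity in the zygote, stood at 1.49 FPKM in the control and 9.70 in the mutant at day 2. The other 5 values of day 2 for mex-5, from the untreated animals and the 4 RNAi libraries, were 0.848, 0.669, 0.914, 0.694 and 0.559 FPKM, so the mutant lay above all 6 other values of day 2. The difference on the log2(FPKM + 1) scale was 2.11. The KH-domain repressor gene mex-3 had 2 transcripts, NM_058280 at 2.17 FPKM in the control and 11.4 in the mutant, and NM_001026318 at 0 and 3.04. For NM_058280 the untreated animals gave 1.08 FPKM and the RNAi libraries 0.826 to 1.82 at day 2, again all below the mutant.

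The genes pos-1, oma-1, puf-3, puf-5, puf-11 and spn-4 followed the same order at lower levels. The gene pos-1, a CCCH zinc finger protein needed for fates of the posterior embryo, stood at 0.447 FPKM in the control and 3.62 in the mutant. Its 4 RNAi libraries and the untreated animals gave 0.113 to 0.589 FPKM. The oocyte maturation gene oma-1 stood at 0.419 and 2.73 FPKM, and its paralog oma-2 at 4.32 and 6.40, a difference of 0.48 that stayed within 2-fold. The Pumilio-like repressor genes of the oocyte puf-3, puf-5 and puf-11 stood at 0.0926, 0.233 and 0.13 FPKM in the control and at 2.71, 2.72 and 2.62 in the mutant. For spn-4, an RNA recognition motif protein of the early embryo, the values were 0.0649 and 2.28 FPKM.

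The remaining RNA-binding members stayed within 2-fold on the log2(FPKM + 1) scale. The Nanos-family gene nos-2, expressed in primordial germ cells, stood at 4.17 FPKM in the control and 3.06 in the mutant. The transcripts of pie-1, which represses transcription in germline blastomeres, stood at 2.14 and 2.25 FPKM in the control and at 2.71 and 2.20 in the mutant. The mex-5 paralog mex-6 was under 1 FPKM in both, at 0.0273 in the control and 0.286 in the mutant.

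Among P granule genes, 3 of 9 transcripts were past 2-fold higher in the mutant at day 2. The largest difference of all 46 was that of deps-1, needed for P granule assembly, which stood at 0.0532 FPKM in the control and 9.43 in the mutant, a difference of 3.31. Its listed range is a merged stretch of 359196 bases, and another annotated gene overlaps it. How reads were shared there is not known. In the 4 RNAi libraries of day 2 deps-1 was between 0 and 0.162 FPKM. The helicase genes glh-4 and glh-2 stood at 3.02 and 0.0361 FPKM in the control and at 8.01 and 1.08 in the mutant, and glh-3 at 0.258 and 1.09. For glh-4 the 4 libraries of day 2 reached 7.11 FPKM, so the mutant was only slightly above them. The transcript NM_071877 of pgl-3 lay just inside the 2-fold line with 0.0322 and 1.04 FPKM. In contrast glh-1, a Vasa-like helicase, stood at 6.28 FPKM in the control, the highest level there among the P granule genes, and at 5.44 in the mutant. For pgl-2 the values were 5.21 and 4.43.

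Of the regulators of stem cells and meiotic entry, 1 of 6 transcripts passed, counting a gld-2 transcript outside the 46. The gene gld-1 (chromosome I, 7695690 to 7697405), a KH-domain repressor that promotes meiotic entry and oocyte development, stood at 1.07 FPKM in the control and 3.56 in the mutant. The other 5 values of day 2 for gld-1 lay between 0.469 and 1.52 FPKM. The gld-2 transcripts NM_001026673 and NM_059440 stood at 13.5 and 8.46 FPKM in the control and at 11 and 9.29 in the mutant. A further gld-2 transcript, NM_059441, which is outside the 46, was at 0.105 and 0.845 FPKM. The Pumilio-like stem cell genes fbf-1 and fbf-2, closely related paralogs, were at 0.02 and 0.567 FPKM in the control and at 0.299 and 0.353 in the mutant.

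Eggshell, fertilization and yolk uptake genes were low in the control and mostly low in the mutant. The gene cbd-1, a chitin-binding protein of the eggshell, stood at 0.109 and 1.62 FPKM, and the yolk receptor gene rme-2 at 0.0127 and 1.26, both past 2-fold. The chitin synthase gene chs-1 stood at 2.05 FPKM in the control and 4.28 in the mutant, a difference of 0.79. The egg activation gene egg-3 stood at 0.694 and 1.53 FPKM. The sperm receptor candidates egg-1 and egg-2, closely related paralogs, were at or below 0.553 FPKM in both.

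Among genes of the meiotic chromosome, 3 of 10 transcripts were past 2-fold higher. The axis gene htp-3 was listed at 0 in the control and at 1.18 FPKM in the mutant, and in all 4 RNAi libraries of day 2 it was also 0. The cohesin gene rec-8 had its transcript NM_001268799 at 1.13 FPKM in the control and 5.87 in the mutant, and NM_001268798 at 0.403 and 1.10. The third rec-8 transcript, NM_001268800, had values unlike those of the others. It stood at 257 FPKM in the control and 544 in the mutant at day 2, and in the 8 libraries it was 0 in 5 and 170, 189 and 234 FPKM in the other 3, with no order by age or arm. The axis genes htp-1 and him-3 stood at 0.315 and 0.123 FPKM in the control and at 1.17 and 0.95 in the mutant. The synapsis genes syp-1 and syp-2 were slightly lower in the mutant, at 2.46 and 1.85 FPKM against 1.82 and 1.21, and syp-3 was at 1.2 and 1.68. The break-forming gene spo-11 stayed low, at 0.255 and 0.512 FPKM.

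**Figure D1:**
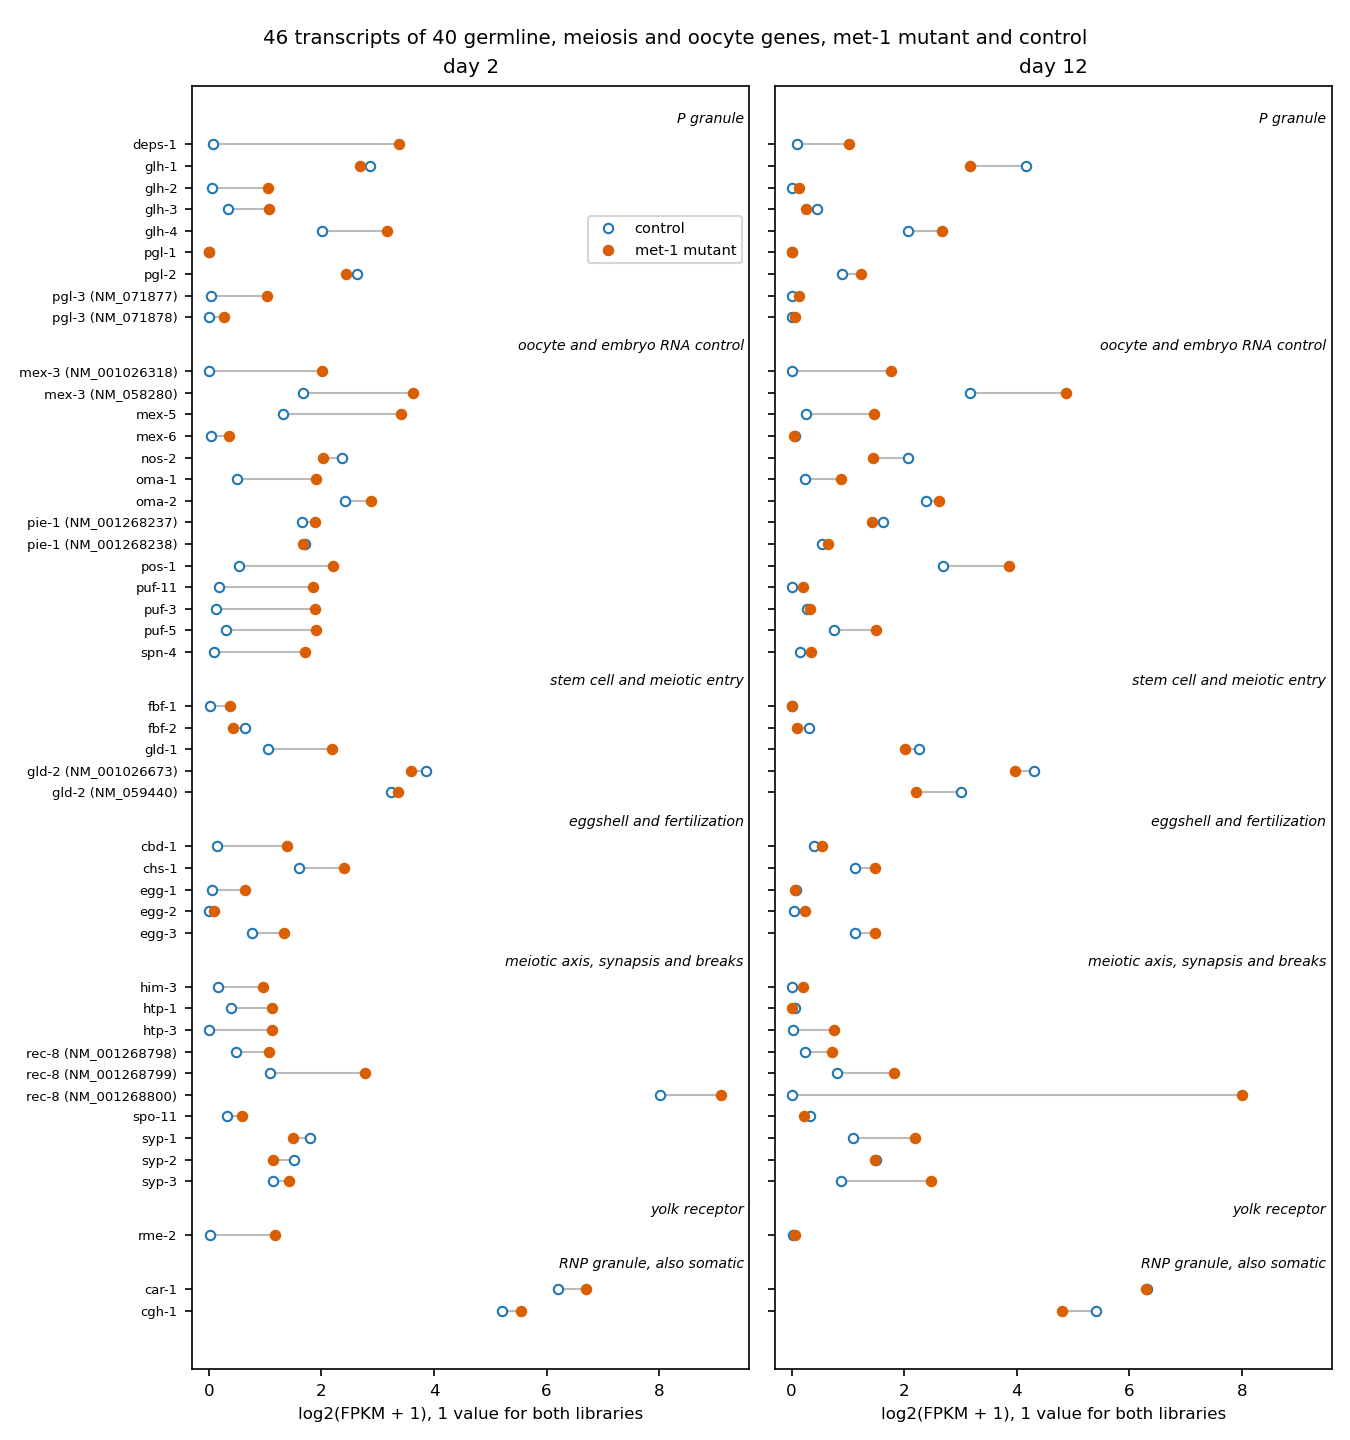
Level of the 46 transcripts of the 40 genes on the log2(FPKM + 1) scale (horizontal axis) at day 2 (left) and day 12 (right), in the control (open circles) and the met-1 mutant (filled circles), with 1 value for both libraries of a group and rows ordered by role. At day 2, 37 transcripts reached 1 FPKM in the mutant and 20 in the control; at day 12 the numbers were 24 and 16.

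The mutant value of day 2 can also be set beside every other value of day 2. It exceeded all 6 other values in 18 of the 25 transcripts found by name, where the same held for 41.1% of the 14780 background transcripts. Among the 21 others it exceeded all 5 values in 19, against 37.8%. At day 12 this was so in 6 of 25, against 16.5%, and in 11 of 21, against 20.5%. The tables were scaled separately, so these counts are to be read against their backgrounds.

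Lists of other genes with related functions were counted in the same way, and in each most transcripts stayed within 2-fold. Their backgrounds are the 5.46% and 6.4% higher and 1.56% and 1.97% lower given above for transcripts inside and outside the isoform table. At day 2, 10 of 37 transcripts of other germline RNA regulators were past 2-fold higher and 0 lower, among them rnp-8, a partner of the poly(A) polymerase GLD-2, at 0.897 and 8.38 FPKM. Among other oocyte and eggshell genes 7 of 27 were higher and 1 lower. In this list cey-3, a cold-shock domain protein, stood at 0.546 and 7.12 FPKM, whereas the cyclin gene cyb-3 had one transcript higher and another lower. Among other meiosis genes 4 of 33 were higher and 0 lower, such as htp-2, a close paralog of htp-1, at 0.0971 and 1.52 FPKM. Of the sperm genes 8 of 25 were past 2-fold higher and 0 lower, with a summed level of 12.0 FPKM in the control and 38.7 in the mutant, and 12 transcripts at 0 in the control against 4 in the mutant. The major sperm protein gene msp-142 stood at 0.182 and 4.87 FPKM. Of the somatic gonad list 0 of 8 and of the neuron list 0 of 8 were past 2-fold either way, with sums of 591 and 522 FPKM for the gonad list. Lists of intestine, hypodermis and pharynx genes gave 0 of 6, 0 of 3 and 0 of 5 past 2-fold, and body wall muscle 1 of 3, higher, with a sum of 578 FPKM in the control and 993 in the mutant. All 3 hypodermis and all 3 body wall muscle transcripts were higher in the mutant, with median differences of 0.68 and 0.85. Medians of the intestine, pharynx, somatic gonad and neuron lists were 0.12, 0.33, 0.06 and 0.17. Those of other germline RNA regulators, other oocyte and eggshell, other meiosis and sperm genes were 0.64, 0.51, 0.29 and 0.12. Whether residual germ cells had a part in the higher values was not tested.

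**Figure D2:**
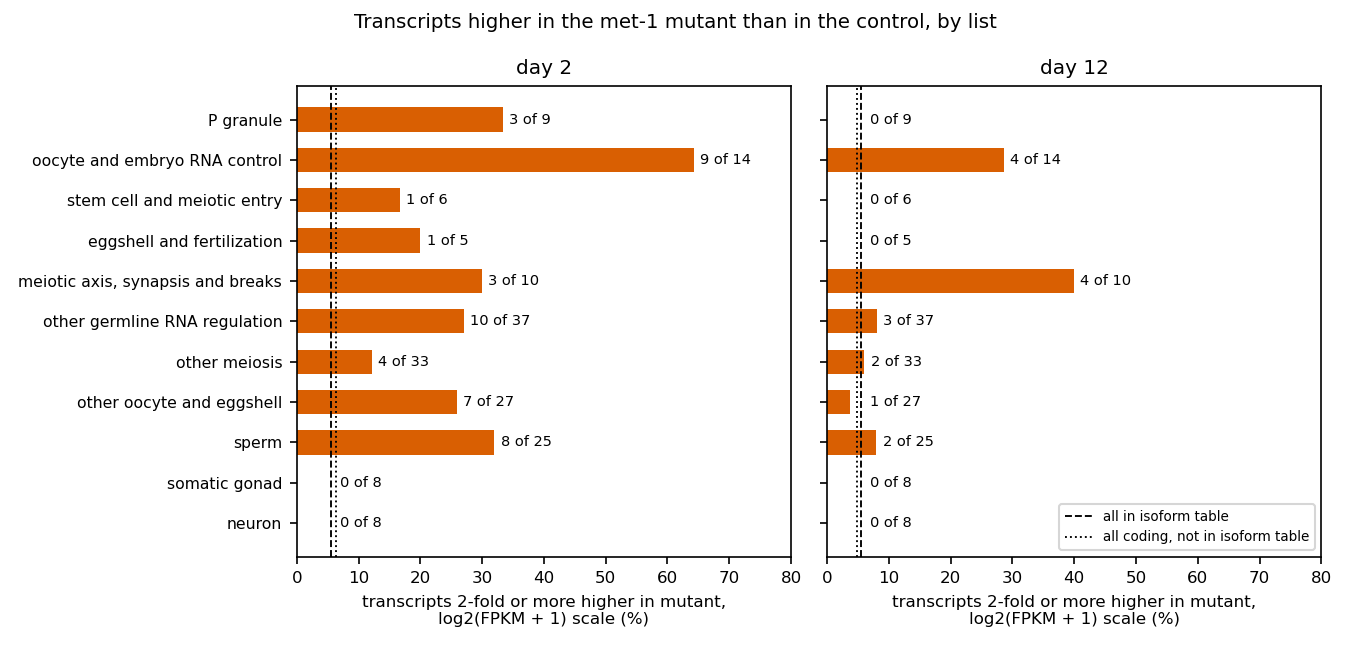
Share of transcripts past 2-fold higher in the met-1 mutant than in the control on the log2(FPKM + 1) scale (horizontal axis, percent), by list, at day 2 (left) and day 12 (right); numbers beside the bars give transcripts past 2-fold of all in the list, the dashed line the background of the isoform table (5.46% and 5.51%) and the dotted line that of other coding transcripts (6.4% and 4.87%). The stem cell list holds one more gld-2 transcript than the members do. Germline, oocyte, meiosis and sperm bars stand past the lines at day 2, and the somatic gonad and neuron lists have 0 of 8. Lists of intestine, body wall muscle, hypodermis and pharynx are not drawn. Of these, body wall muscle had 1 of 3 past 2-fold higher at day 2 and intestine 1 of 6 at day 12.

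At day 12 fewer members differed between mutant and control. Of the 25 found by name, 6 were past 2-fold higher and 0 lower (24.0%), against a background of 5.51% and 1.96%. Of the 21 others, 2 were higher and 0 lower (9.52%), against 4.87% and 1.86%. With columns scaled to one median the background split of the first set went from 814 higher and 290 lower to 651 and 388, and the members became 6 higher and 1 lower. The transcripts past 2-fold were those of mex-3, mex-5, pos-1, syp-1, syp-3 and, in the second set, rec-8. The transcript NM_058280 of mex-3 stood at 8.04 FPKM in the control and 28.3 in the mutant, and pos-1 at 5.46 and 13.6. For mex-5 the values were 0.198 and 1.74 FPKM. The synaptonemal complex genes syp-1 and syp-3, which at day 2 had been close to the control, stood at 1.12 and 0.841 FPKM in the control and at 3.6 and 4.54 in the mutant. In the opposite direction glh-1 stood at 16.9 FPKM in the control and 8.02 in the mutant, a difference of -0.99, just within 2-fold, and the mutant was below all 6 other values of day 12. The genes deps-1, puf-3, puf-11, spn-4 and rme-2, all past 2-fold at day 2, differed by 0.93, 0.05, 0.20, 0.20 and 0.04 at day 12.

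The change with age was tested in the 8 libraries with limma on log2(FPKM + 1), with libraries scaled to one median and p-values adjusted by Benjamini and Hochberg over 18572 transcripts. A transcript entered if it reached 1 FPKM in at least 2 libraries, which 18 of the 25 found by name and 4 of the 21 others did. A transcript that enters through one age has to be higher there, so counts over the tested members are a description. In L4440 animals 4 members rose with age and 0 fell, where 8.9% of all transcripts tested rose and 10.7% fell. In met-1 RNAi-labelled animals 3 rose and 0 fell, where 11.3% rose and 11.3% fell. The median change over the tested members was 0.32 and 0.44 in the 2 arms, beside 0.09 and 0.13 for all transcripts. As deposited, without scaling, all transcripts split into 4193 higher and 1352 lower in L4440 and 4417 and 1418 in the other arm, against 1653 and 1982 and 2103 and 2105 with scaling, and 7 and 6 members were higher. None of the 4 tested transcripts of the second set was called in either arm, at an adjusted p of 0.137 or more, though pie-1 fell in the RNAi-labelled animals when its transcripts were summed, by 0.86 (limma adjusted p = 0.0146).

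The largest change among the called members was that of pos-1 (NM_072771, chromosome V, 8414072 to 8414919). Its FPKM was 0.113 and 0.116 in L4440 and 0.589 and 0.228 in the met-1 RNAi-labelled libraries at day 2, and 12.7 and 7.12 and 13.9 and 12.2 at day 12. All 4 libraries of day 12 lay far above all 4 of day 2. The gene rose by 3.02 ± 0.32 (log2, SE) in L4440 (limma adjusted p = 0.00291) and by 3.07 ± 0.32 in met-1 RNAi-labelled animals (adjusted p = 0.00245). No other annotated gene overlaps pos-1.

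The transcript NM_058280 of mex-3 was 1.04 and 0.826 FPKM in L4440 and 1.82 and 1.71 in the other arm at day 2, and 7.07 and 10.6 and 26.7 and 23.2 at day 12. Here too the ages did not overlap, and at day 12 the met-1 RNAi-labelled libraries stood above both L4440 libraries. It rose by 2.01 ± 0.26 in L4440 (limma adjusted p = 0.00499) and by 2.88 ± 0.26 in the other arm (adjusted p = 0.0015). The second transcript, NM_001026318, was 3.86 and 0 FPKM in L4440 and 0 and 4.69 in the other arm at day 12, and 0.595 to 0.885 at day 2. Its 0 in 1 library of each arm at day 12 leaves no order by age. The tables give mex-3 the range of a merged stretch of 125845 bases on chromosome I, as they do over 359196 bases for deps-1, 689373 for htp-3 and 201328 for pie-1, and the sources used here do not say how reads were shared among genes in such a stretch.

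The meiotic entry regulator gld-1 was 1.52 and 1.39 FPKM in L4440 and 0.469 and 0.509 in the other arm at day 2, and 5.32 and 4.53 and 4.04 and 5.25 at day 12. The ages did not overlap. The gene rose by 1.67 ± 0.23 in met-1 RNAi-labelled animals (limma adjusted p = 0.00604) and by 0.94 ± 0.23 in L4440 (adjusted p = 0.0407). The L4440 call was lost without any 1 of the 8 libraries, with adjusted p from 0.0573 to 0.146. The helicase gene glh-1 was 5.75 and 4.84 FPKM in L4440 and 5.20 and 3.67 in the other arm at day 2, and 19 and 14.6 and 12 and 11 at day 12. All day 12 values were above all day 2 values. It rose by 1.08 ± 0.24 in L4440 (limma adjusted p = 0.0299), a call lost without 6 of the 8 libraries taken singly, with adjusted p up to 0.123. In the other arm its change of 0.84 ± 0.24 missed the threshold (adjusted p = 0.0579).

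**Figure D3:**
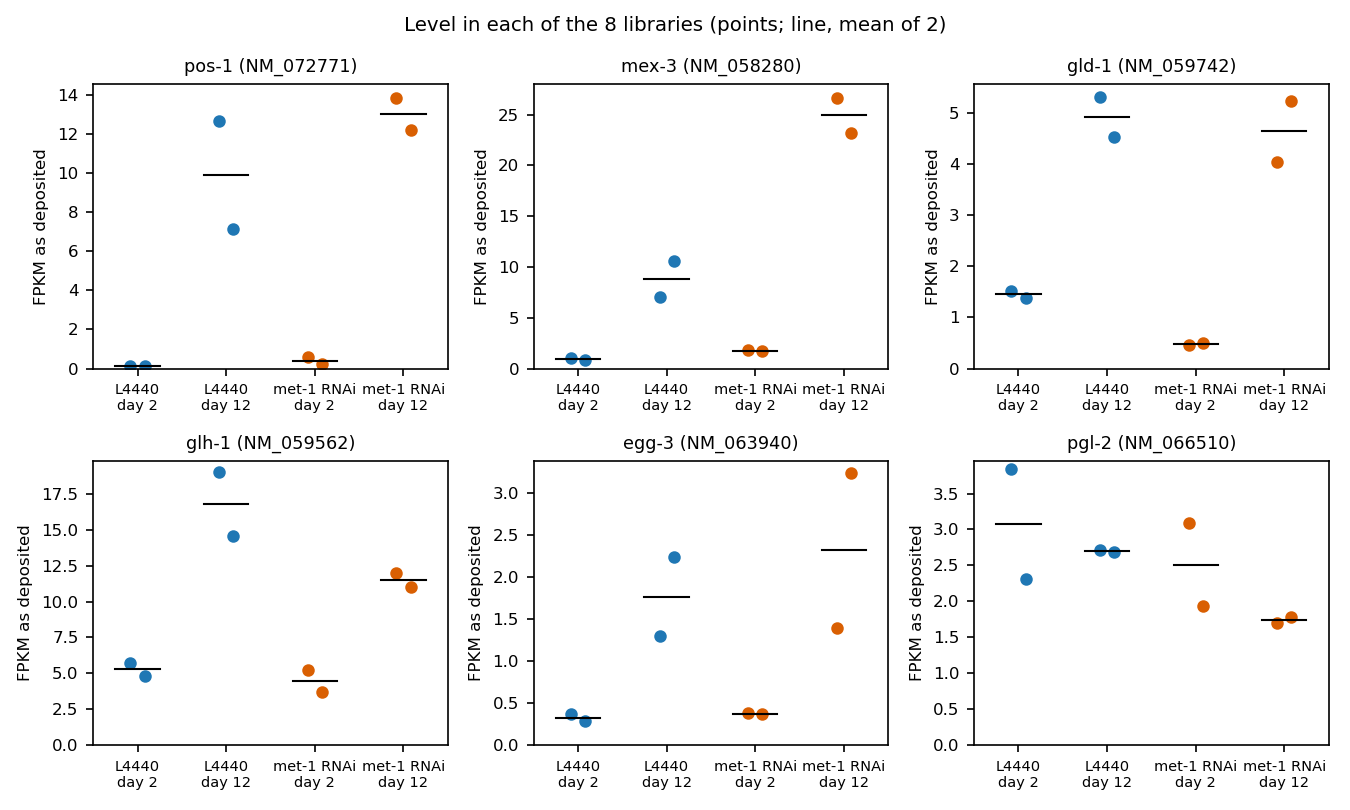
FPKM as deposited (vertical axes, linear from 0) of 6 transcripts in each of the 8 libraries of the RNAi experiment; points are libraries, lines the mean of 2, blue L4440 and orange met-1 RNAi as labelled. For pos-1, mex-3, gld-1, glh-1 and egg-3 every library of day 12 lies above every library of day 2, whereas for pgl-2 the ages overlap.

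The other 14 tested members of the first set did not pass in either arm. The egg activation gene egg-3 was 0.366 and 0.282 FPKM in L4440 and 0.38 and 0.367 in the other arm at day 2, and 1.29 and 2.24 and 1.40 and 3.23 at day 12. Its ages did not overlap, yet its changes of 0.85 ± 0.35 and 1.01 ± 0.35 missed the threshold (limma adjusted p = 0.155 and 0.0954). The oocyte gene puf-5 went from 0.0471 to 0.553 FPKM at day 2 to 0.798 to 1.79 at day 12, also without overlap. All 4 libraries of day 12 were above all 4 of day 2, after scaling, in 7 of the 25 transcripts found by name, against 22.0% of background transcripts, and all were below in 2, htp-1 and fbf-2, against 17%. The tested synapsis genes ranged at day 2 from 0.637 FPKM, for syp-1, to 2.04, for syp-2. Their changes with age lay between -0.88 and 0.65.

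Lists of related genes gave few calls with age. In L4440 the translation factor genes iff-1 and ife-1 rose and the Argonaute gene csr-1 fell among 20 transcripts tested of other germline RNA regulation, and none of 16 of other meiosis or 21 of other oocyte and eggshell passed. In met-1 RNAi-labelled animals ife-1 rose and csr-1 fell in the first list, and the eggshell proteoglycan gene cpg-1 rose and the embryonic homeobox gene pal-1 fell in the last. Of 6 sperm transcripts tested, spe-11 rose and msp-31 fell in both arms. The gene spe-11, whose product sperm bring into the egg, was 0.771 and 0.889 FPKM in L4440 at day 2 and 26.7 and 20.8 at day 12. Its change of 3.43 ± 0.22 (limma adjusted p = 0.000788) stood beside those of pos-1 and mex-3, whereas the median over the 6 sperm transcripts was -0.13 in L4440 and 0.13 in the other arm. The summed sperm list was 11.3 to 19.4 FPKM in libraries of day 2 and 27 to 37.2 in those of day 12, and without spe-11 it was 10.5 to 18.7 and 10.5 to 12.8. The summed somatic gonad list, led by gap junction genes of the gonadal sheath, was 425 to 483 and 670 to 838 FPKM as deposited, and 483 to 569 and 581 to 717 with libraries scaled to one median. The part of these cell types in the changes of the members was not tested.

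In the control of the mutant, 4 of 25 transcripts found by name were past 2-fold higher at day 12 and 2 lower, against 8.42% and 10.8% of the background, and 0 and 2 of the 21 others, against 5.7% and 6.79%. The 4 were pos-1, mex-3, glh-1 and gld-1, the same genes as in the L4440 libraries. Going from day 2 to day 12, pos-1 was 0.447 and 5.46 FPKM, mex-3 NM_058280 2.17 and 8.04, glh-1 6.28 and 16.9 and gld-1 1.07 and 3.82. The transcripts past 2-fold lower were those of pgl-2 (5.21 and 0.855 FPKM) and mex-5 (1.49 and 0.198), and in the second set pie-1 NM_001268238 (2.25 and 0.461) and rec-8 NM_001268800 (257 and 0).

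In the met-1 mutant, 3 of 25 were past 2-fold higher at day 12 and 6 lower, against 11.8% and 13.6%, and 0 and 6 of the 21 others, against 7.09% and 8.87%. The median change was -0.38 and -0.77 in the 2 sets, beside 0.00 for both backgrounds. The transcripts past 2-fold higher were pos-1 (3.62 and 13.6 FPKM), mex-3 NM_058280 (11.4 and 28.3) and syp-3 (1.68 and 4.54). The gene gld-1 stood at 3.56 and 3.03 FPKM, where the control had 1.07 and 3.82. Past 2-fold lower were mex-5 (9.70 and 1.74 FPKM), puf-3 (2.71 and 0.257), oma-1 (2.73 and 0.832), pgl-2 (4.43 and 1.34), htp-1 (1.17 and 0) and gld-2 NM_059440 (9.29 and 3.64). In the second set these were deps-1 (9.43 and 1.04 FPKM), puf-11 (2.62 and 0.15), spn-4 (2.28 and 0.278), rme-2 (1.26 and 0.0458), pie-1 NM_001268238 (2.20 and 0.571) and rec-8 NM_001268800 (544 and 255). These age changes and the differences between mutant and control at day 2 share the mutant value of day 2.

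In untreated animals, 1 of 25 was past 2-fold higher on the log2(FPKM + 1) scale and 2 lower, against 6.37% and 10.8%. In the authors' deposited table, which gives a q-value per transcript, 7 members were higher at day 12 with q below 0.05 and 7 lower, against 13% and 18.6% of all its transcripts. The higher ones in the authors' deposited table were glh-1, both mex-3 transcripts, pos-1, oma-2, gld-1 and egg-3, and the lower ones pgl-2, mex-5, fbf-2, gld-2 NM_059440, chs-1, htp-1 and car-1. Its smallest q among members was that of pos-1, 5.76e-09, with a log2 fold change of 3.04 from 0.324 to 2.66 FPKM, and for pgl-2 the authors' deposited table gives q = 3.68e-06 with 4.49 and 1.49 FPKM. The sources used here do not describe the test behind the q-value.

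Over the 5 groups of animals, 4 of the 25 transcripts were higher at day 12 in all 5, namely glh-1, mex-3 NM_058280, pos-1 and egg-3, a share that is below the 25.7% of the background. Another 6 were lower in all 5, against 22.7%, namely pgl-2, mex-5, fbf-2, gld-2 NM_059440, chs-1 and htp-1, and 15 were mixed. The change of pos-1 was 3.02, 3.07, 2.16, 1.66 and 1.47 in L4440, met-1 RNAi, control, mutant and untreated animals. That of mex-3 NM_058280 was 2.01, 2.88, 1.51, 1.25 and 0.66 in the same order. The change of pgl-2, a PGL family protein, was -0.45, -0.62, -1.74, -1.21 and -1.14. Its values overlapped between ages in the 8 libraries, at 1.93 to 3.85 FPKM at day 2 and 1.7 to 2.72 at day 12. An overlapping gene, kin-31, limits what can be said of pgl-2 without strand.

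**Figure D4:**
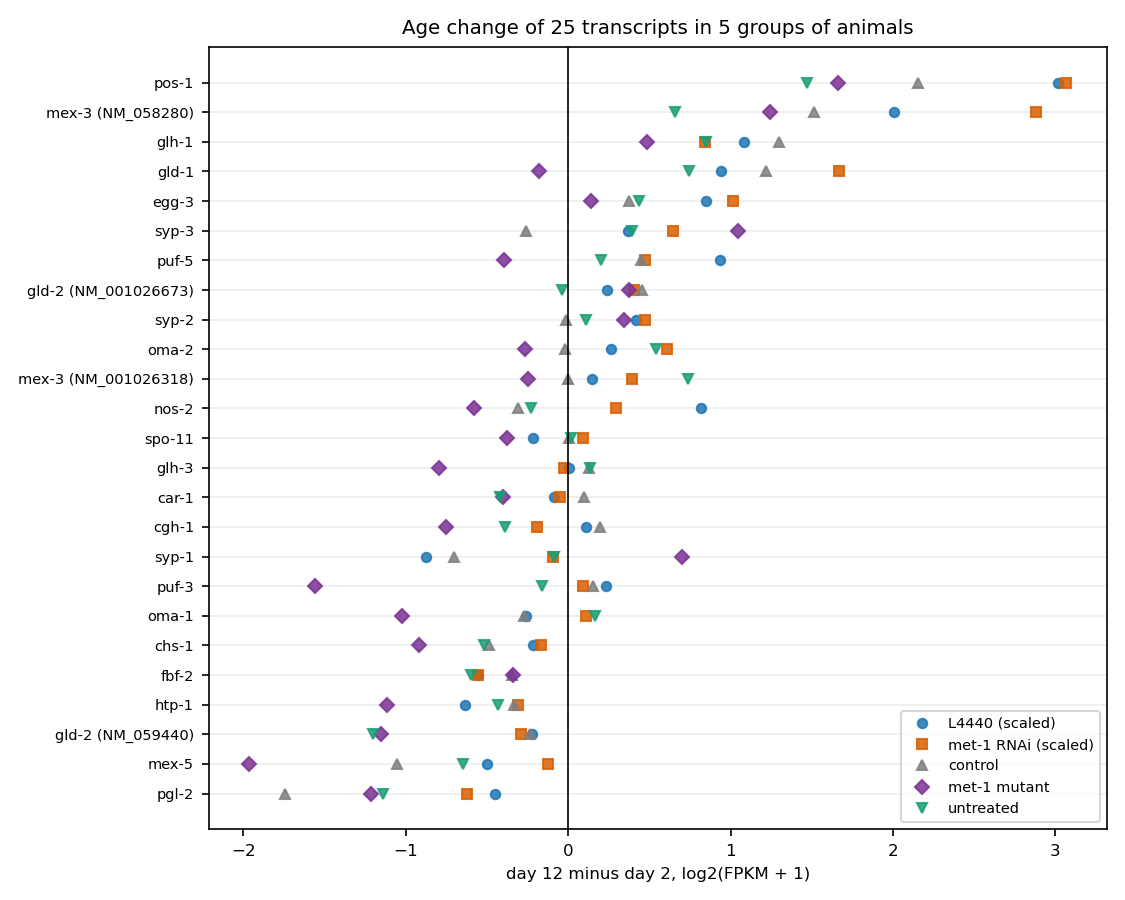
Change with age of the 25 transcripts found by name (horizontal axis, day 12 minus day 2 on the log2(FPKM + 1) scale) in 5 groups of animals; symbols stand for groups, and the L4440 and met-1 RNAi values are means of 2 libraries scaled to one median. The transcripts of pos-1, mex-3 NM_058280, glh-1 and egg-3 lie right of 0 in all 5 groups, and mex-5 and puf-3 reach furthest left in the mutant, at -1.96 and -1.56.

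The RNAi arms were compared at each age, and the direction of each difference follows the labels as deposited. The level of met-1 itself was higher, not lower, in the RNAi-labelled libraries, and the reason was not tested. No member was called at day 2, where 0.188% of all transcripts tested were called by limma and 1 member and 735 transcripts had an unadjusted p below 0.05. At day 12 no member was called either, against 0.42%, with 2 members and 1893 transcripts at an unadjusted p below 0.05. The interaction test of the age change between arms passed in no tested member, against 0.334%, with 0 members and 1048 transcripts at an unadjusted p below 0.05. At day 12 mex-3 NM_058280 was higher by 1.41 ± 0.26 in the met-1 RNAi-labelled libraries (limma adjusted p = 0.159). Summed over both mex-3 transcripts the difference was 1.28 and passed (adjusted p = 0.0351). At day 2 both values of gld-1 in these libraries, 0.469 and 0.509 FPKM, lay below both of L4440, and the difference of -0.79 ± 0.23 did not pass (limma adjusted p = 1). For nos-2 at day 12 the values were 4.80 and 4.06 FPKM in L4440 and 1.78 and 1.3 in the other arm, without overlap, and the difference of -1.04 ± 0.32 did not pass (adjusted p = 0.383). Its neighbour him-14 overlaps nos-2. In the list of other germline RNA regulators the Piwi gene prg-1 was below L4440 at both ages, with differences of -1.41 ± 0.12 at day 2 and -1.09 ± 0.12 at day 12 (limma adjusted p = 0.026 and 0.0358).

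The 4 genes found by name with the largest difference between mutant and control at day 2 were mex-5, mex-3, puf-3 and pos-1, and their values in the RNAi arms can be set beside it. For mex-5 the met-1 RNAi-labelled arm gave 0.694 and 0.559 FPKM at day 2 beside 0.669 and 0.914 in L4440, and for puf-3 0.0534 and 0.206 beside 0.154 and 0.316, so the arms overlapped. For mex-3 NM_058280 and pos-1 both values of that arm lay above both of L4440, at 1.82 and 1.71 beside 1.04 and 0.826 FPKM and at 0.589 and 0.228 beside 0.113 and 0.116. The differences of mex-3 NM_058280, 0.54 ± 0.26, and of pos-1, 0.36 ± 0.32, did not pass (limma adjusted p = 1 for both), and mex-5 and puf-3 were under the filter on low values.

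Of the 40 genes, 14 overlap another annotated gene in the RefSeq annotation and 26 do not. The sources used here do not say whether counting used strand, so reads of an overlapping gene cannot be separated for gld-2, nos-2, pgl-2, puf-3, deps-1, pie-1, spn-4, fbf-1, egg-1, egg-3, syp-1, syp-3, spo-11 and cgh-1. The closely related pairs mex-5 and mex-6, oma-1 and oma-2, and fbf-1 and fbf-2 may also have shared or lost reads. The same holds for puf-3 and puf-11, egg-1 and egg-2, and htp-1 and htp-2. Headers of the RNAi libraries name unique hits, and those of the other FPKM columns do not.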

How the data were processed

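Poly-A selected mRNA of whole animals was analysed in 20 libraries of 10 groups. The 12 chromatin samples were not analysed here. FPKM values were deposited by the authors as 1 value per age for both libraries of the control, the mutant and untreated animals, per the file headers. Values of the RNAi experiment come 1 per library with no unit in the header, and these were taken as FPKM since Cuffdiff is listed in the submitters' processing notes with CASAVA 1.8, BWA, TopHat and TopHat2. The sources used here do not give build, annotation or strandedness. The log2 fold change and the q-value (p-value adjusted by the authors) of the isoform table were deposited by the authors. Read totals are not given, so counting intervals were not computed.

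The members and lists were chosen with earlier results of these data known. Transcripts with a status other than OK (1112 of 46971) were left out. The 8 libraries were scaled to one median over 12001 transcripts (factors 0.847 to 1.189), and log2(FPKM + 1) was fitted with limma 3.58.1 (lmFit, eBayes with trend) in R 4.3.3, for transcripts at 1 FPKM or more in at least 2 libraries, two-sided, at an adjusted p of 0.05. This scale understates changes of low transcripts. The procedure was tested on simulated data. Other tables were compared by the ratio of FPKM + 1, called past 2-fold. Named members were those called in the 8 libraries, past 2-fold between mutant and control at day 2 or past 2-fold the same way with age in control and mutant (at most 25, largest first), then the highest of each role in the control at day 2. Of other lists at most 3 genes per comparison were named, largest called change first. Values of further members and list genes were added after they were seen. Symbols were matched through RefSeq identifiers for 44265 of 46971 transcripts. Libraries correlated at 0.883 to 0.926 within groups. Alternatives were other scalings, pseudocounts, filters and folds, sums per gene, a replicate block and leaving out each library.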

Additional observations from a re-analysis of the deposited data

How the results depend on the processing

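Over the 16 alternatives, the age changes of pos-1, mex-3, gld-1 and glh-1 stayed positive in both arms of the RNAi experiment. The split of all transcripts with age in L4440 did change direction. It was 1653 higher and 1982 lower with scaling, and 4193 and 1352 as deposited. The age changes of pos-1 and mex-3 NM_058280 kept their calls in both arms (limma adjusted p at most 0.0299). That of gld-1 kept its call in the met-1 RNAi arm (at most 0.0416). In L4440 gld-1 lost its call in 14 of 16 and glh-1 in 6, and glh-1 passed in the other arm in 4. Members higher with age numbered 4 in L4440, 7 as deposited and 2 to 3 with a library left out, and 3 in the other arm, 6 as deposited and 5 summed per gene. All transcripts called higher in L4440 numbered 1653, then 4193 as deposited and 814 to 1464 with a library left out. In the other arm they numbered 2103, then 4417 as deposited, and 2357 genes were higher when summed per gene. Members lower were 0, with 1 in L4440 without the filter (htp-1), beside 1854 of all transcripts. In the other arm 1 was lower with quantile normalization (pgl-2), beside 2241 of all transcripts. The gene mex-3 was the 1 member called between arms at day 12 when summed per gene, beside 51 of all genes higher and 21 lower. With a pseudocount of 0.1 transcripts past 2-fold, lower with age, were 4 and 4 (found by name, then by identifier) in the control and 10 and 15 in the mutant, and 5 in untreated animals, where 4 were higher. The background shares moved too, to 15.2% and 12.0% lower in the control, 17.7% and 18.2% in the mutant, and 16.6% lower and 12.7% higher in untreated animals. In the control 1 of the second set was then higher, and between mutant and control 17 of the second set at day 2 and 8 at day 12 were higher (background 21.6% and 18%) and 1 of the first set at day 12 lower (3.92%), as also after scaling. With a fold of 4, in the control 1 and 0 were higher (background 2.46% and 1.65%) and 0 and 1 lower (3.07% and 2.16%). In the mutant 0 and 0 were then higher (3.33% and 2.26%) and 0 and 1 lower (4.4% and 2.93%). In untreated animals 0 were higher (1.7%) and 0 lower (2.74%). Between mutant and control, 2 and 1 were higher at day 2 (1.03% and 1.49%) and 0 and 1 at day 12 (1.05% and 1.13%). Of the second set at day 12, 1 was higher in the mutant after scaling (background 4.3%), summed per gene (4.56%) or without rec-8 NM_001268800. Leaving out that transcript was an alternative chosen after seeing the data. Without it, or summed per gene (5.54%), 1 of that set was lower with age in the control. Summed per gene, 1 of the first set was lower in untreated animals (10.5%). Causes were not tested. Replicate numbers of the labels did not pair libraries, since correlations of same-numbered deviations were -0.06 to 0.123. With the number as a replicate block, 3 members were higher in L4440 and 4 in the other arm, beside 1520 and 1919 of all transcripts. All calls between arms then went from 35 to 4 at day 2, from 78 to 38 at day 12 and from 62 to 6 for the interaction. Depth limits the low members, which rest on few reads, most of all in the second L4440 library of day 12.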

Other observations

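The rec-8 transcript NM_001268800 alternated between 0 and high values, with 234 and 0 FPKM in L4440 at day 2, 189 and 0 in L4440 at day 12, 0 in both RNAi-labelled libraries of day 2 and 0 and 170 in those of day 12. The other rec-8 transcripts did not exceed 1.23 FPKM in these libraries. The summed level of the other 45 transcripts was 161 to 191 FPKM in the libraries of day 2 and 271 to 290 in those of day 12, as deposited, of which car-1 and cgh-1 made up 110 to 130 and 158 to 163. With libraries scaled to one median the sums were 187 to 227 and 234 to 250 FPKM.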
